A study of Mus musculus with 12 samples.

Results

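The effect of FEM1B siRNA was measured in BACH1 knockout KP cells, a mouse lung adenocarcinoma line, by comparing knockout cells given FEM1B siRNA with knockout cells given control siRNA. These 2 groups held 6 of the 12 libraries of the study, 3 per group, and 13312 of the 24421 genes in the count table had 10 or more counts in at least 3 of the 12 libraries and were tested. All libraries came from KP cells, whose genotype includes floxed Trp53 (Trp53flox/flox), which every group therefore shares. The knockout cells had been made with CRISPR/Cas9 and a guide RNA against Bach1 (written sgBACH1), the control cells carried a control guide (sgCTRL), and each was transfected with control siRNA (siCTRL) or FEM1B siRNA (siFEM1B) for 48 hours. The series states 3 biological replicates per condition and names 1 knockout line, so the spread described here is that between cultures of 1 line. The other 6 libraries, control cells with either siRNA, shared one estimate of the spread with these and are used below only to show where knockout cells differed.

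FEM1B selects the proteins that a CUL2 ubiquitin ligase modifies: with elongins B and C and RBX1 it marks bound proteins for degradation by the proteasome. Proteins described as its substrates include FNIP1, a partner of the lysosomal regulator FLCN, and the title of the series names BACH1 as another, recruited through heme. BACH1 is a repressor that pairs with small MAF proteins at antioxidant response elements, the same elements at which NRF2 (gene Nfe2l2) activates genes for glutathione synthesis, thioredoxin, ferritin and heme breakdown. Ferroptosis is cell death by iron-dependent lipid peroxidation, and several of these genes bear on it. Knockout cells show which transcripts differ with FEM1B siRNA where BACH1 is not made, as far as the knockout was complete, which the counts do not measure.

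Total counts of the 6 knockout libraries lay between 16539168 and 21719512, where 1 count was worth 0.0462 to 0.0604 CPM (reads of a gene relative to the library's total, scaled with TMM factors). The first principal component of these 6 libraries held 60.6% of the variance and separated the siRNAs. The second held 13% and set the FEM1B siRNA library of replicate 2 at 23.3 apart from replicates 1 and 3, at −7.09 and −14.2, and where that library lay apart from the other FEM1B siRNA libraries the value without it is given. Replication-dependent histone transcripts carry no poly(A) tail and were listed as a sign of RNA quality. Of these 10 genes 5 were tested. All 10, tested or not, had a sum of 25.9 to 28.7 CPM in the control siRNA group and 30.3 to 38.1 CPM in the other. The median difference of the 5 tested was 0.16, 0.43 and −0.10 in FEM1B siRNA replicates 1 to 3 (log2), and its part in the results was not tested. The labelled lung origin was checked against markers: 4 of 15 lung lineage markers were tested, and Nkx2-1, Sftpa1, Sftpd, Scgb3a2 and Hopx were at 0 counts in all 6 libraries. All 15 together, tested or not, summed to 196 to 205 CPM under control siRNA and 195 to 200 CPM under FEM1B siRNA. Of 14 gut lineage markers 13 were tested. The summed level of all 14 was 1490 to 1610 CPM under control siRNA and 1620 to 1650 CPM under FEM1B siRNA. The sums that follow likewise cover all listed markers of a kind, tested or not, under control siRNA and then FEM1B siRNA. Of 15 leukocyte markers only Cd14 and Cd68 were tested, and Adgre1, Cd3d, Cd3e, Nkg7 and Tyrobp were at 0. The 15 summed to 26.5 to 30.9 CPM and 39.8 to 45.8 CPM. Of 12 fibroblast markers 4 were tested, with Dcn, Lum, Pdgfrb, Postn, Tcf21 and Thy1 at 0. The 12 summed to 126 to 134 and 171 to 179 CPM. Of 9 endothelial markers 1 was tested, and the 9 summed to 0.299 to 0.789 and 0.432 to 0.604 CPM.

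FEM1B siRNA lowered its target in knockout cells. Fem1b (chr9:62791824-62811648, mm10, the whole gene with its introns) was at 141, 136 and 141 CPM in replicates 1 to 3 with control siRNA and at 46.2, 54.5 and 46.4 CPM with FEM1B siRNA. The groups did not overlap, and Fem1b fell by 1.51 ± 0.08 on the log2 scale (edgeR quasi-likelihood test, Benjamini-Hochberg adjusted p = 1.64e-10), where the ± value is a standard error; all adjusted p-values below are from this two-sided test over all genes tested unless another tool is named, n is 3 libraries a group, and a gene is called at adjusted p under 0.05. The transcript was reduced and not removed; with 1 siRNA reagent, what it does to other transcripts and what lower Fem1b does cannot be told apart.

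The genes of the ligase and of its relatives did not share a direction. Of 20 genes of the FEM1 family and of CUL2 ligases, 6 rose and 6 fell, Fem1b included, against 21.9% higher and 19.7% lower of all genes tested. The scaffold gene Cul2 fell from 91.8, 91.1 and 94.98 to 78.8, 83.3 and 77.9 CPM (log2 −0.21 ± 0.05, adjusted p = 0.00388). Elongin B, listed as Tceb2, rose from 96.2, 109 and 95.9 to 135, 133 and 137 CPM (log2 0.43 ± 0.07, adjusted p = 9.07e-05). Neither gene's libraries overlapped between the siRNAs. The RING subunit gene Rbx1 rose by 0.29 ± 0.08, and the receptor genes Vhl and Klhdc3 by 0.29 ± 0.08 and 0.29 ± 0.06; Klhdc3 overlaps Mea1 in position. The paralog Fem1a fell by 0.27 ± 0.09 (adjusted p = 0.0196), a call that ended without control siRNA replicate 1 or 3 (0.0904 and 0.0584) or FEM1B siRNA replicate 2 (0.112), and Fem1c was at −0.12 ± 0.11 (adjusted p = 0.429). Without control siRNA replicate 3 only 2 of the 20 genes were called lower.

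Of the transcription factors that share antioxidant response elements, the gene of NRF2 fell and Bach1 rose. Nfe2l2 (chr2:75675513-75704663) was at 105, 114 and 113 CPM with control siRNA and 59.7, 54.8 and 60.5 CPM with FEM1B siRNA. It fell by 0.93 ± 0.06 (adjusted p = 9.43e-10), with no overlap. Bach1 (chr16:87698954-87733346) was at 31.05, 27.6 and 29.7 and then 39.95, 39.3 and 40.5 CPM, again without overlap, and rose by 0.44 ± 0.08 (adjusted p = 0.000133). A CRISPR lesion need not remove the transcript it hits, so these Bach1 counts say nothing about the protein. Of 9 BACH, NRF and small MAF genes and Keap1, 2 rose and 2 fell. The NRF2 inhibitor gene Keap1 was at 0.02 ± 0.07 (adjusted p = 0.823) and the related activator Nfe2l3 at 0.04 ± 0.09 (adjusted p = 0.75). The small MAF gene Mafk rose by 0.30 ± 0.10 and Bach2, at 1.02 to 2.73 CPM in the 6 libraries, fell by 0.86 ± 0.29. Both of these calls ended under alternatives: Mafk without control siRNA replicate 2 or 3 (adjusted p = 0.0711 and 0.0813) or FEM1B siRNA replicate 2 (0.137), and also with a replicate block in the 6 knockout libraries (0.0607), and Bach2 without control siRNA replicate 1 or 3 (0.0628 and 0.0747) or FEM1B siRNA replicate 1 (0.105). Mafg, another small MAF gene, missed the threshold at −0.17 ± 0.10 (adjusted p = 0.158) and passed it at −0.31 without FEM1B siRNA replicate 2 (adjusted p = 0.00878).

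**Figure D1:**
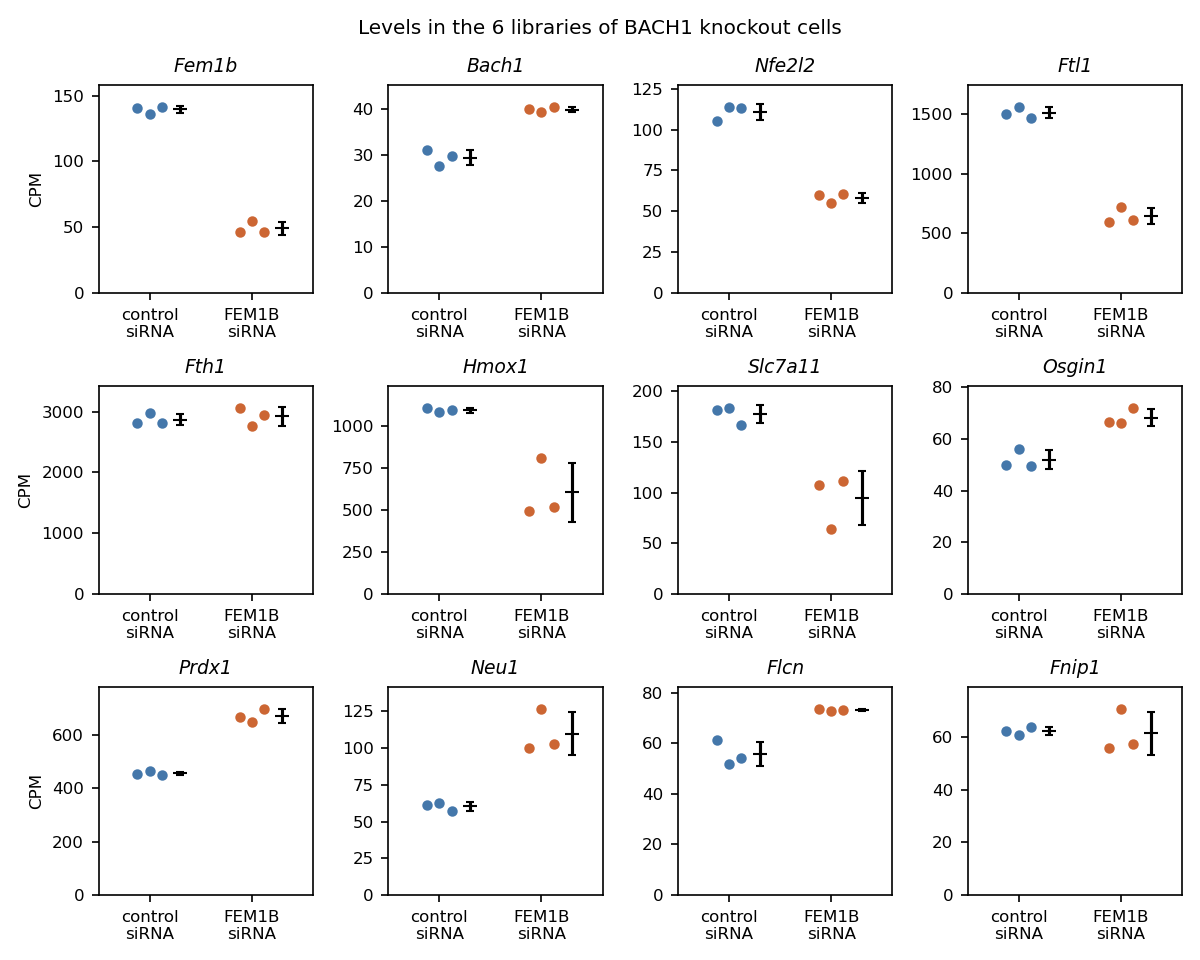
Levels of 12 genes in CPM ( linear axis from 0) in the 3 control siRNA and 3 FEM1B siRNA libraries of BACH1 knockout cells. Points are libraries, replicates 1 to 3 from left to right, with the mean and SD beside them; Fem1b, Nfe2l2, Ftl1, Hmox1 and Slc7a11 lie lower with FEM1B siRNA, Bach1, Osgin1, Prdx1, Neu1 and Flcn higher, and the libraries of Fth1 and Fnip1 overlap.

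Over the whole transcriptome, 5535 genes were called in knockout cells (41.6% of those tested), 2911 higher (21.9%) and 2624 lower (19.7%). Most changes were small: 385 genes rose at least 2-fold (2.89%) and 121 fell at least 2-fold (0.909%). The libraries of the siRNAs did not overlap for 6841 genes, or 51.4%. The median log2 fold change over all genes tested was 0.02. The 21.9% higher and 19.7% lower are the shares to set beside each list count below.

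The largest rises, taken from called genes whose libraries did not overlap and whose mean log2 CPM over the 12 libraries was 3 or more, were led by the apolipoprotein gene Apoc2. It held 7, 8 and 9 counts in the control siRNA libraries and 381, 315 and 306 counts in the FEM1B siRNA libraries, or 0.368, 0.399 and 0.416 against 18.5, 17 and 18.5 CPM. Apoc2 rose by 5.48 ± 0.17 (adjusted p = 1.92e-14). The tetraspanin gene Tspan1 went from 0.421, 0.449 and 0.139 to 5.62, 3.02 and 4.53 CPM, a rise of 3.72 ± 0.33 (adjusted p = 4.72e-08). The ARF GTPase-activating protein gene Adap1 went from 0.947, 0.599 and 0.693 to 8.05, 7.88 and 7.37 CPM, a rise of 3.38 ± 0.20 (adjusted p = 2.47e-10). None of these groups overlapped, and all 3 started at under 1 CPM, from 20 to 45 counts over the group. The heparan sulfate sulfotransferase gene Hs3st1 rose at a higher level, from 4.89, 4.74 and 5.13 to 32.6, 30.2 and 31.5 CPM (2.67 ± 0.12, adjusted p = 1.2e-11). Smpd3, a neutral sphingomyelinase gene, rose from 6.26, 4.44 and 4.71 to 22.5, 22.1 and 21.4 CPM (2.1 ± 0.12, adjusted p = 1.64e-10). The water channel gene Aqp8 rose by 2.59 ± 0.39 from 14 counts to 79 over the group, Glod5 by 2.17 ± 0.13 and the cornified envelope gene Sprr1a by 2.06 ± 0.11. Ifitm3, an interferon-induced membrane protein gene, rose by 2.14 ± 0.21; Ifitm and Sprr genes have near-identical relatives, which makes their values uncertain. Aqp8, Tspan1, Adap1 and Ifitm3 reached the mean log2 CPM of 3 only through control cells. In knockout libraries they ranged over 0.0526 to 1.5, 0.139 to 5.62, 0.599 to 8.05 and 0.832 to 5.07 CPM. In control cell libraries the ranges were 14.6 to 23.5, 4.56 to 28.6, 4.38 to 21.4 and 15.1 to 30.6 CPM. Nlrc5, a regulator of antigen presentation genes, also met the rule only through control cells, where it was at 15.5 to 21.8 CPM. In knockout cells it had 4 counts against 14, a ratio of 3.81 (95% interval 1.2 to 15.9, counting error only). It was called over the 12 libraries (1.84 ± 0.67, adjusted p = 0.0324), but not in the 6 knockout libraries alone (0.102, and 0.146 with a replicate block), nor without control siRNA replicate 1 or FEM1B siRNA replicate 1, 2 or 3 (0.142, 0.0628, 0.0716 and 0.0559).

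The largest falls included matrix and cytoskeleton genes beside Fem1b. Ctgf, a matricellular gene that the YAP and TGF-beta pathways activate, was at 229, 199 and 233 CPM with control siRNA and 69.9, 95.3 and 64.8 CPM with FEM1B siRNA, and fell by 1.52 ± 0.17 (adjusted p = 6.2e-07). Thbs1, thrombospondin 1, went from 122, 88.2 and 118 to 35.6, 49.9 and 35.3 CPM and fell by 1.44 ± 0.16 (adjusted p = 9.73e-07). Sspn, of the dystrophin-associated complex, went from 40.5, 38.5 and 40.6 to 13.96, 13.3 and 13.7 CPM and fell by 1.55 ± 0.10 (adjusted p = 4.87e-10). In each the 3 FEM1B siRNA libraries lay under all 3 control siRNA libraries. Without FEM1B siRNA replicate 2, which was nearest the controls for both, Ctgf was at −1.71 and Thbs1 at −1.63. The dynein light chain gene Dynlt3 fell by 1.34 ± 0.06, the actin-binding gene Shroom4 by 1.37 ± 0.21, the cytochrome P450 gene Cyp1b1 by 1.3 ± 0.08, the glycerolipid synthesis gene Gpam by 1.29 ± 0.15 and the protein kinase A subunit gene Prkar2a by 1.23 ± 0.08. The lectin pathway protease gene Masp1, which overlaps Rtp4 in position, fell by 1.87 ± 0.20.

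Iron genes were next described by role: storage, import and export, and the iron sensors. The ferritin light chain gene Ftl1 (chr7:45457944-45459886) was at 1504, 1559.6 and 1469 CPM with control siRNA and 597, 722 and 611 CPM with FEM1B siRNA. It fell by 1.23 ± 0.10 (adjusted p = 1.76e-08), without overlap. The ferritin heavy chain gene Fth1 (chr19:9980600-9985111) was at 2806, 2974 and 2819 and 3063, 2762 and 2939 CPM. Its groups overlapped and it was not called (0.03 ± 0.05, adjusted p = 0.713). Both ferritin genes have near-identical copies elsewhere in the genome, so their levels are uncertain. The ferrireductase gene Steap2 fell from 280.0, 283 and 298 to 202, 175 and 199 CPM (−0.58 ± 0.09, adjusted p = 2.88e-05). Cisd2, of an iron-sulfur membrane protein, fell by 0.47 ± 0.07, and the iron regulatory protein gene Ireb2 by 0.32 ± 0.07. Fbxl5, whose product degrades that regulatory protein when iron is high, rose from 137, 137 and 130.5 to 168, 179 and 175 CPM (0.37 ± 0.06, adjusted p = 3.96e-05), and the mitochondrial iron importer gene Slc25a28 rose by 0.29 ± 0.05. The iron exporter gene Slc40a1 was rare, with 57 counts against 25 over the groups, a ratio of 0.478 (95% interval 0.286 to 0.777, counting error only). It was called at −1.05 ± 0.39 (adjusted p = 0.0372) but not by DESeq2 (0.0503), with no count filter (0.0567), in the 6 knockout libraries alone (0.0581, and 0.0899 with a replicate block), nor without control siRNA replicate 1 or 3 (0.126 and 0.0609) or FEM1B siRNA replicate 1 or 2 (0.162 and 0.103). In all, 5 of 23 iron genes rose (3 without control siRNA replicate 3) and 6 fell, shares near the 21.9% and 19.7% of all genes tested.

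Heme genes are given by role, and their shares called were near the 21.9% higher and 19.7% lower of all genes tested. Hmox1, heme oxygenase 1, which opens the heme ring and releases its iron (chr8:75093618-75100593), was at 1108, 1081 and 1093 CPM with control siRNA and 493, 808 and 517 CPM with FEM1B siRNA. Replicate 2 of FEM1B siRNA lay between the other FEM1B siRNA libraries and the controls, and the groups did not overlap; Hmox1 fell by 0.85 ± 0.16 (adjusted p = 0.000193), and was at −1.12 without that library (adjusted p = 1.03e-06). The porphyrin transporter gene Abcb6 rose from 23.05, 21.01 and 22 to 41.3, 38.4 and 44.01 CPM (0.91 ± 0.09, adjusted p = 1.35e-07), and Blvra, which reduces biliverdin to bilirubin, by 0.41 ± 0.08. The heme and urate exporter gene Abcg2 fell from 16.3, 19.7 and 17.3 to 12.4, 10.1 and 10.6 CPM (−0.68 ± 0.13, adjusted p = 0.000285), and the lysosomal heme transporter gene Slc48a1, which overlaps Hdac7, by 0.35 ± 0.05. Of 15 genes of heme breakdown and transport 4 rose and 4 fell. In heme synthesis Alas1, the first enzyme, fell by 0.23 ± 0.07 and the coproporphyrinogen oxidase gene Cpox by 0.52 ± 0.08, from 46.99, 48.1 and 47.3 to 31.9, 36.4 and 30.8 CPM, while Tspo, an outer mitochondrial membrane protein linked to porphyrins, rose by 0.27 ± 0.07. Of 13 synthesis genes 3 rose (1 without control siRNA replicate 1) and 2 fell.

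The promoters of antioxidant genes are shown because the members of this group went in opposite directions, and NRF2 and BACH1 are described to bind the same short element in them. RefSeq promoter sequences of the GRCm38.p6 assembly, 250 bases before to 50 bases after a start site, matched 9814 of the 13312 genes tested. They were searched on both strands for TGACNNNGC and for the longer TGANTCAGC; where the N of the second is C, a match is also a match of the first. TGACNNNGC stood in a promoter of 17.1% of these genes and of 10 of 26 NRF2 targets with a promoter (38.5%), and TGANTCAGC in 1.39% and in 5 of 26 (19.2%). The lines that follow give Osgin1 (chr8:119436897-119437196, plus strand) and Prdx1 (chr4:116685349-116685648, plus strand), which rose, and Srxn1 (chr2:152105274-152105573, plus strand), which fell, each 5′ to 3′ with either motif in capitals.
Osgin1: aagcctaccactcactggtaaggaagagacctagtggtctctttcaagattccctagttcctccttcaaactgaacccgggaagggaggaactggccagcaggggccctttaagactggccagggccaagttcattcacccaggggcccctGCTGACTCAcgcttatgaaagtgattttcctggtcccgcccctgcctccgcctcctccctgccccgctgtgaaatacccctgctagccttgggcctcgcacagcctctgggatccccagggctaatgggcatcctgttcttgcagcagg
Prdx1: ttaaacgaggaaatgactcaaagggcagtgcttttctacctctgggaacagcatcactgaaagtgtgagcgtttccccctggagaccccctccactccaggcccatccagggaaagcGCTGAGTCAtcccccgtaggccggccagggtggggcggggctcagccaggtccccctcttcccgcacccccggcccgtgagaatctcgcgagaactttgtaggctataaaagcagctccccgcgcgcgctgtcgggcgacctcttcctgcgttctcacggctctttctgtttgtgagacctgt
Srxn1: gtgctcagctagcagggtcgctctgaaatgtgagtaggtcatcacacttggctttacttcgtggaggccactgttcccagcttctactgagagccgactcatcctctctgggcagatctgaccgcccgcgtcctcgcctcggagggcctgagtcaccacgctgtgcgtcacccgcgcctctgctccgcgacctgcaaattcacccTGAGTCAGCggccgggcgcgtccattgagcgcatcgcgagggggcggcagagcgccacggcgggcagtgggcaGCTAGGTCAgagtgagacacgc
The match begins at position −99 from the start site in Osgin1, −133 in Prdx1, and −45 and 29 in Srxn1. Among NRF2 targets with a promoter sequence, TGACNNNGC stood in 5 of 7 that fell and 2 of 8 that rose, and TGANTCAGC in 1 of 7 and 2 of 8. A match is a description of the letters and shows no binding.

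The counts of those genes went both ways. Prdx1, a peroxiredoxin that reduces peroxides with thioredoxin, was at 454, 465 and 451 CPM with control siRNA and 669, 649 and 699 CPM with FEM1B siRNA, a rise of 0.56 ± 0.05 (adjusted p = 1.67e-07). Osgin1, an oxidative stress response gene, went from 49.9, 56.1 and 49.7 to 66.6, 66.2 and 72.02 CPM, a rise of 0.39 ± 0.07 (adjusted p = 0.000229). Srxn1, sulfiredoxin, which restores oxidised peroxiredoxins, went from 63.5, 61.4 and 66.1 to 55.9, 52.6 and 54.03 CPM and fell by 0.23 ± 0.06 (adjusted p = 0.00592). In none of the 3 did the groups overlap, which was so for 51.4% of all genes tested and 70.6% of NRF2 targets. These 3 were picked with their directions known, as examples of each, and the part of the element in the direction was not tested. Of 34 NRF2 targets 10 rose and 10 fell, beside 21.9% higher and 19.7% lower of all genes tested. The median was 0.00 on the log2 scale. Besides Prdx1 and Osgin1, rises were seen for Idh1, a source of NADPH (0.62 ± 0.07), the glutathione transferase gene Gsta4 (0.61 ± 0.08) and Gclm, the modifier subunit of glutathione synthesis (0.32 ± 0.06). Falls were seen for the glutathione conjugate pump gene Abcc1 (−0.59 ± 0.06), Prdx6 (−0.44 ± 0.06) and the thioredoxin reductase gene Txnrd1 (−0.19 ± 0.05), besides Ftl1 and Hmox1. The catalytic subunit gene Gclc was at −0.11 ± 0.06 (adjusted p = 0.186), and the quinone reductase gene Nqo1, with 61 counts against 51 over the groups, at −0.13 ± 0.34 (adjusted p = 0.788). Of 19 genes described as repressed by BACH1, a list that shares members with this one, 5 rose and 8 fell; their median of −0.11 was −0.07 without control siRNA replicate 1 and −0.01 without control siRNA replicate 2 or FEM1B siRNA replicate 1.

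In the ferroptosis pathway the cystine uptake gene Slc7a11 (chr3:50364936-50499087) was at 182, 184 and 167 CPM with control siRNA and 107, 63.9 and 112 CPM with FEM1B siRNA. Replicate 2 was the lowest library, the groups did not overlap, and Slc7a11 fell by 0.91 ± 0.19 (adjusted p = 0.000755), and was at −0.69 without that library (adjusted p = 0.00275). Gpx4, which reduces lipid peroxides, was at 48.5, 48.5 and 48.02 and 55.3, 45.99 and 53.9 CPM, with overlapping groups (0.10 ± 0.08, adjusted p = 0.368). Of 40 defence genes 9 rose and 11 fell, shares near the 21.9% and 19.7% of all genes tested. Those that rose included Pla2g6, a phospholipase that removes peroxidised fatty acids (0.46 ± 0.06), and those that fell included Nfe2l2, Ftl1 and Hmox1. Of 25 genes described as promoting ferroptosis 8 rose and 7 fell, beside the same 21.9% and 19.7%. Without control siRNA replicate 1 or FEM1B siRNA replicate 1, 4 of these 25 rose and 4 fell, and 5 rose without control siRNA replicate 2 or 3 or FEM1B siRNA replicate 3. Ptgs2, a cyclooxygenase gene used as a marker of ferroptosis, fell from 272, 276 and 278 to 159, 197 and 157 CPM (−0.68 ± 0.09, adjusted p = 7.18e-06). Lpcat3, which loads polyunsaturated fatty acids into phospholipids and overlaps Emg1, rose by 0.38 ± 0.05, and the polyamine enzyme gene Sat1 by 0.30 ± 0.07. Acsl4, which activates those fatty acids, was at 0.09 ± 0.08 (adjusted p = 0.344).

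FLCN and FNIP1 or FNIP2 act on the Rag GTPases at the lysosome and keep the factors TFEB and TFE3 out of the nucleus; these factors drive lysosomal genes through the E-box CACGTG. Promoters of Rragb (chrX:153139708-153140007, plus strand), Lamtor4 (chr5:138255232-138255531, plus strand) and Gla (chrX:134600956-134601255, minus strand) are shown because each gene rose and each holds that E-box more than once, in capitals (RefSeq, GRCm38.p6, 5′ to 3′).
Rragb: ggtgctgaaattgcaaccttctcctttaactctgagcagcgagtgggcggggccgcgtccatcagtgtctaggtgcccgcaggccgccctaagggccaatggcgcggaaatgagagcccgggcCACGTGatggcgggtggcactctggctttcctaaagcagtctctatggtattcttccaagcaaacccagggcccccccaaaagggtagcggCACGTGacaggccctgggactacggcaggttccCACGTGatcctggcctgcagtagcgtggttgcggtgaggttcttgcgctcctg
Lamtor4: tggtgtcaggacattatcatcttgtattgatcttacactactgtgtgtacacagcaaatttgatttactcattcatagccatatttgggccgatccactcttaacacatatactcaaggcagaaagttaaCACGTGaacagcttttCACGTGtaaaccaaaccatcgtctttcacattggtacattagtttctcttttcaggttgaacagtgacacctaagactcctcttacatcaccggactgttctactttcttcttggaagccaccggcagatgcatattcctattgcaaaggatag
Gla: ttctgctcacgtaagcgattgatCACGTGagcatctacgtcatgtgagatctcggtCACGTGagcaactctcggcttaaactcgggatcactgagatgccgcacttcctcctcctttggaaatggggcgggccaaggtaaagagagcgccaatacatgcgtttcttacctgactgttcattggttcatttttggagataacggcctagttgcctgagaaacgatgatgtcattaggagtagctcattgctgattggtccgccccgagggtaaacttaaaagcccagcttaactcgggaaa
CACGTG reads the same on both strands. It stood in a promoter of 11.7% of genes tested with a promoter sequence, of 14 of 31 lysosomal genes (45.2%) and of 5 of 16 FLCN, FNIP and TFE genes (31.2%). Among lysosomal genes it stood in 6 of 16 that rose and in 4 of 5 that fell.

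Most genes of this regulatory group rose. Of 17 FLCN, FNIP, Rag, Ragulator and TFE genes 11 rose and 1 fell, with a median of 0.38, against 21.9% and 19.7% of all genes. Tfeb went from 14.3, 15.9 and 16.3 to 27.4, 24.1 and 23.9 CPM (0.70 ± 0.09, adjusted p = 2.91e-06). Flcn went from 61.2, 51.9 and 54.3 to 73.6, 72.9 and 73.2 CPM (0.39 ± 0.07, adjusted p = 0.000207). The Rag GTPase gene Rragb went from 2.42, 2.55 and 2.59 to 6.01, 4.21 and 4.89 CPM (1.002 ± 0.19, adjusted p = 0.000354). Each of these had all FEM1B siRNA libraries above all control siRNA libraries. The Ragulator genes Lamtor3, Lamtor4 and Lamtor5 rose by 0.59 ± 0.08, 0.64 ± 0.12 and 0.60 ± 0.08. The melanosome and lysosome membrane gene Gpnmb had 2 counts against 22, a ratio of 12.0 (95% interval 2.94 to 105). The transcript of the described substrate, Fnip1, was at 62.3, 60.7 and 63.8 and 56, 70.8 and 57.4 CPM and overlapped between groups (−0.02 ± 0.09, adjusted p = 0.876), and Fnip2 was the member that fell (−0.34 ± 0.09, adjusted p = 0.00381).

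Of 43 lysosomal genes 19 rose and 8 fell, with a median of 0.13, beside 21.9% higher and 19.7% lower of all genes tested. The number lower was thus near the share of all genes. The sialidase gene Neu1 rose from 61.3, 62.7 and 56.9 to 99.8, 127 and 103 CPM (0.87 ± 0.09, adjusted p = 2.1e-07). The protease gene Ctsh rose from 14.6, 16.6 and 13.9 to 23.95, 25.6 and 29.2 CPM (0.80 ± 0.10, adjusted p = 3.24e-06). Groups of both genes stood apart. Tpp1, a peptidase, rose by 0.52 ± 0.06, the galactosidase gene Gla by 0.58 ± 0.08 and Atp6ap2, of the proton pump, by 0.50 ± 0.06. The number lower was 4 or 5 without any 1 of control siRNA replicates 1, 2 and 3 or of FEM1B siRNA replicates 1 and 2.

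**Figure D2:**
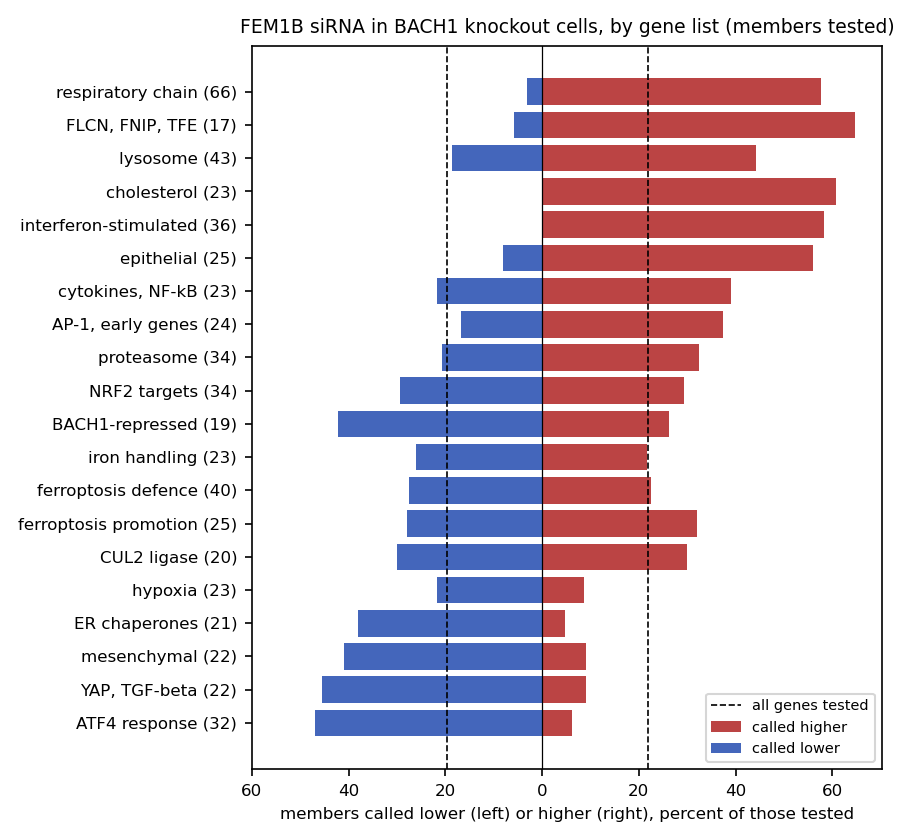
Share of each gene list called higher (right) or lower (left) with FEM1B siRNA in BACH1 knockout cells, in percent of the members tested, whose number stands in brackets. Dashed lines mark the 21.9% higher and 19.7% lower of all 13312 genes; respiratory chain (38 of 66), FLCN, FNIP and TFE (11 of 17), cholesterol (14 of 23) and interferon-stimulated genes (21 of 36) reach furthest to the right, and ATF4 response genes (15 of 32) furthest to the left.

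ATF4 switches on amino acid transport, serine and one-carbon metabolism and tRNA synthetases under stress. Of 32 ATF4 response genes 2 rose and 15 fell, with a median of −0.28, beside 21.9% higher and 19.7% lower of all genes tested. The mitochondrial folate enzyme gene Aldh1l2 fell from 88.5, 92.03 and 92.6 to 54.6, 55.1 and 53.9 CPM (−0.74 ± 0.07, adjusted p = 8e-08). Another folate enzyme gene, Mthfd1l, fell by 0.53 ± 0.06, and the synthetase genes Gars and Wars by 0.33 ± 0.07 and 0.39 ± 0.08; Wars overlaps Wdr25. The neutral amino acid transporter gene Slc7a5 was at 353, 383 and 358 CPM and then 284, 216 and 286 CPM, with replicate 2 lowest (−0.48 ± 0.11, adjusted p = 0.00113, and −0.36 without it, adjusted p = 0.00569). By library, the median difference of the list from the control siRNA mean was −0.15, −0.53 and −0.18 in FEM1B siRNA replicates 1 to 3. Without replicate 2 the median was −0.16, with 4 genes higher and 13 lower.

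Replicate 2 of FEM1B siRNA stood on the other side of the control siRNA libraries from replicates 1 and 3 in the lists of ER chaperones and hypoxia targets. For 21 ER chaperones and stress sensors the median difference was −0.18, 0.09 and −0.13 in replicates 1 to 3. Of these genes 1 rose and 8 fell, beside 21.9% higher and 19.7% lower of all genes tested. The glycoprotein chaperone gene Canx went from 554, 536 and 552 to 367, 382 and 369.5 CPM (−0.55 ± 0.05, adjusted p = 2.18e-08), and Hsp90b1 from 1367, 1319 and 1339.9 to 899.7, 1268 and 916 CPM (−0.38 ± 0.09, adjusted p = 0.00273). In Canx all 3 FEM1B siRNA libraries were low, whereas in Hsp90b1 replicate 2 was close to the control siRNA libraries, and without it Hsp90b1 was at −0.56 (adjusted p = 1.36e-06). Hyou1 fell by 0.32 ± 0.06 and the stress sensor gene Ern1 by 0.76 ± 0.16. The list median of −0.04 was −0.13 without FEM1B siRNA replicate 2 and 0.01 without replicate 1, and 5 genes were called lower without control siRNA replicate 3 or FEM1B siRNA replicate 1 or 3.

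For 23 hypoxia targets the median difference was −0.23, 0.18 and −0.21 in replicates 1 to 3, and 2 rose and 5 fell. Of all genes tested 21.9% were higher and 19.7% lower, so the number of these targets that fell was near that share. Pdk1, which blocks entry of pyruvate into the citric acid cycle, fell from 361, 366 and 369 to 250.4, 294 and 243 CPM (−0.48 ± 0.07, adjusted p = 1.82e-05). The collagen prolyl hydroxylase gene P4ha1 fell by 0.36 ± 0.07, and the mitophagy gene Bnip3 rose by 0.28 ± 0.07. Ero1l, an ER oxidase gene, was at 1107, 959 and 1112 CPM with control siRNA and 536, 1045 and 542 CPM with FEM1B siRNA: replicates 1 and 3 were low and replicate 2 overlapped the controls. It was called at −0.58 ± 0.18 (adjusted p = 0.013), but not by DESeq2 (0.0802) nor without FEM1B siRNA replicate 1 (0.0853) or 3 (0.0876); without replicate 2 it was at −0.97 (1.28e-06). Without replicate 2, 13 of the 23 hypoxia targets were called lower and the median was −0.22; 2 were without FEM1B siRNA replicate 1, 3 without FEM1B siRNA replicate 3 or control siRNA replicate 1, and 8 without replicate 3 of control cells with FEM1B siRNA. Of 21 glycolysis genes 5 rose and 6 fell, and 2 and 8 without replicate 2; 3 rose without control siRNA replicate 1 or 3. Pgk1 fell from 148, 172 and 153 to 113, 125 and 114 CPM (−0.42 ± 0.09, adjusted p = 0.00107) and Hk2 by 0.36 ± 0.07, while the regulator gene Pfkfb4 rose by 0.57 ± 0.11.

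**Figure D3:**
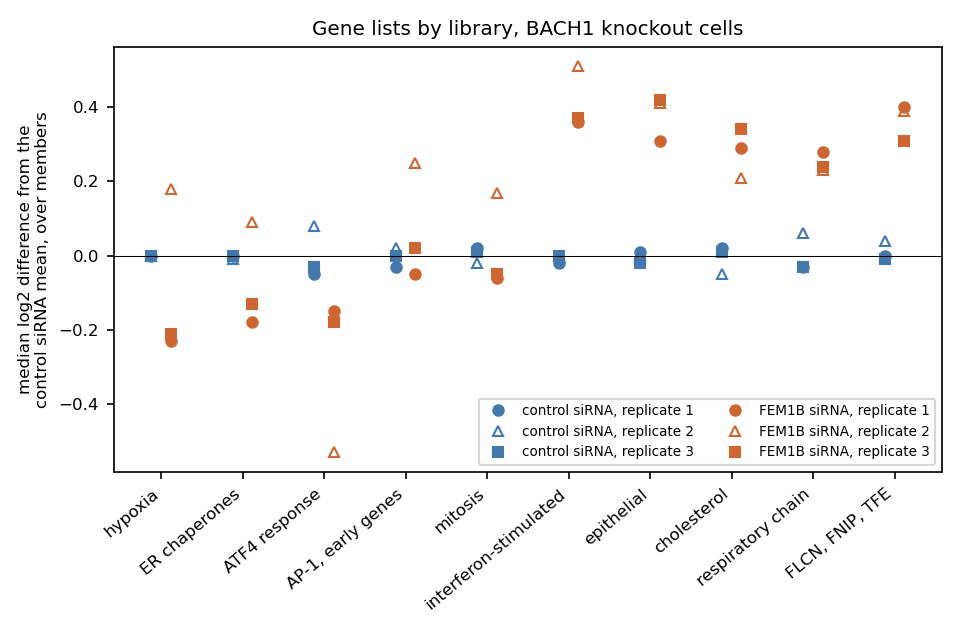
Median over the members of each list of the log2 difference from the mean of the 3 control siRNA libraries, for each of the 6 knockout libraries (circles, open triangles and squares are replicates 1, 2 and 3). FEM1B siRNA replicate 2 differs in sign from replicates 1 and 3 for hypoxia targets (0.18 against −0.23 and −0.21), ER chaperones and mitosis, while interferon, epithelial, cholesterol, respiratory chain and FLCN lists lie above 0 in all 3.

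Nuclear genes of the respiratory chain and ATP synthase were called higher far more often than lower. Of 66 such genes 38 rose and 2 fell, with a median of 0.27 and 35 to 41 higher when any 1 library was left out. Of all genes tested 21.9% were higher and 19.7% lower. Cox6a1, of cytochrome oxidase, rose from 229.7, 249.1 and 238 to 350.3, 342 and 365 CPM (0.56 ± 0.06, adjusted p = 8.55e-07). Cox8a, of the same complex, rose by 0.56 ± 0.07, the ATP synthase gene Atp5g3 by 0.47 ± 0.06 and the succinate dehydrogenase gene Sdhc by 0.47 ± 0.06. Sdhd, which encodes another subunit of that dehydrogenase, fell from 110.4, 109 and 109 to 70.5, 78.1 and 72.4 CPM (−0.57 ± 0.06, adjusted p = 1.04e-06). The direction of change moved with the exon length of genes, a description chosen after the values were seen. Among 9631 genes that had a GENCODE M21 exon length and a mean log2 CPM of 3 or more, 39.6% of the shortest group were called higher and 10.6% lower, against 11.1% and 35.4% of the longest group, out of 5 equal groups. Of 63 respiratory chain genes with a length, 44 lay in the shortest group. The shortest group stood above the longest by 0.26, 0.20 and 0.25 (median log2) in FEM1B siRNA replicates 1 to 3 and by −0.05, 0.10 and −0.05 in the control siRNA libraries. In knockout cells the median log2 change went from 0.14 in the shortest group to −0.09 in the longest. In control cells it went from 0.07 to −0.05. The part of length in the respiratory chain result was not tested.

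**Figure D4:**
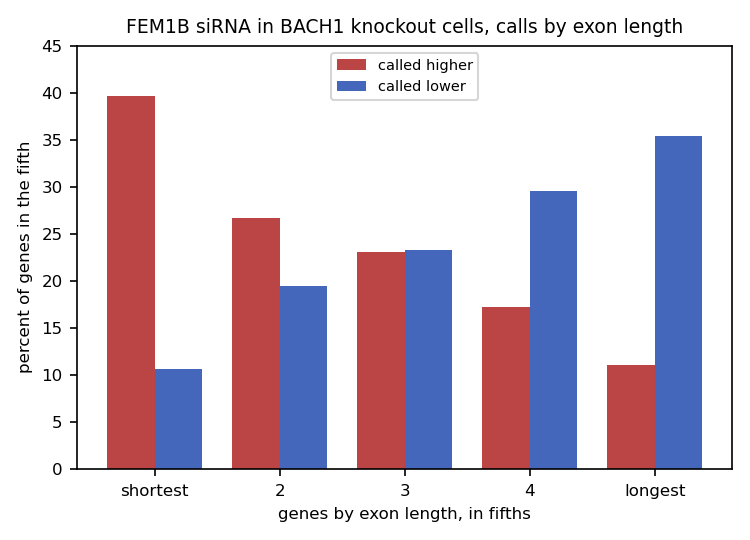
Percent of genes called higher or lower with FEM1B siRNA in BACH1 knockout cells in 5 equal groups of exon length (genes with a mean log2 CPM of 3 or more). Calls higher fall from 39.6% in the shortest group to 11.1% in the longest, and calls lower rise from 10.6% to 35.4%.

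Of the genes of cholesterol synthesis and uptake, 14 of 23 rose and none fell (edgeR; 0 lower also at an unadjusted p under 0.05 and with DESeq2), with a median of 0.28 and 13 to 17 higher when any 1 library was left out. Beside the counts in this paragraph stand 21.9% higher and 19.7% lower of all genes tested. Hmgcs1, which commits acetyl groups to the mevalonate pathway, rose from 157, 143 and 157 to 258, 254 and 259 CPM (0.76 ± 0.07, adjusted p = 8.23e-08). The squalene synthase gene Fdft1, which overlaps Ctsb, rose from 75.5, 76.3 and 74.6 to 120.2, 105 and 119.9 CPM (0.61 ± 0.07, adjusted p = 6.12e-07). In both, all 3 FEM1B siRNA libraries lay above all control siRNA libraries. Later steps rose as well: Tm7sf2, which overlaps Vps51, by 0.67 ± 0.07, Msmo1 by 0.50 ± 0.06 and Nsdhl by 0.45 ± 0.07. Of 23 members with a length, 3 were in the shortest group of genes, and the part of length in this result was not tested. Of 19 fatty acid genes 7 rose and 2 fell, with the elongase gene Elovl7 at 6.63, 5.69 and 7.35 and 16.5, 12.8 and 13.8 CPM (1.13 ± 0.13, adjusted p = 1.07e-06).

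Interferon-stimulated genes rose: 21 of 36 were called higher and none lower (edgeR; 1 lower at an unadjusted p under 0.05 and 0 with DESeq2), with a median of 0.54. Levels were low, and 19 of the 36 had a mean under 1 CPM with control siRNA in knockout cells, of which 7 were called; 14 were under 1 CPM with both siRNAs. Bst2, which tethers budding virus to the membrane, rose from 35.3, 39.8 and 35.9 to 66.1, 62.9 and 57.4 CPM (0.75 ± 0.09, adjusted p = 2.07e-06). The ADP-ribosyltransferase gene Parp9, which overlaps Dtx3l, rose from 11.6, 10.8 and 12.2 to 19.8, 18.3 and 19.9 CPM (0.74 ± 0.09, adjusted p = 2.19e-06). The groups of neither gene overlapped. Among the rare members, Dhx58, an RNA sensor gene, had 35 counts against 132 and rose by 2.02 ± 0.33, Parp14 by 1.58 ± 0.21, Oasl2 by 1.51 ± 0.27 and Xaf1 by 1.33 ± 0.25. When any 1 library was left out, 18 to 22 members were called higher. Of all genes tested 21.9% were higher and 19.7% lower.

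Cytokine and NF-kB genes went both ways, with 9 of 23 higher and 5 lower, and their median of −0.02 changed sign when single libraries were left out (to 0.02, 0.12 and 0.04 without control siRNA replicate 1, 2 or 3, and to 0.09 and 0.03 without FEM1B siRNA replicate 2 or 3). The adhesion gene Icam1 rose from 33.2, 37.5 and 34.9 to 68.2, 61.05 and 57.6 CPM (0.82 ± 0.07, adjusted p = 6.26e-08). The chemokine gene Ccl5 rose by 1.48 ± 0.25 from 1.53, 1.597 and 1.43 CPM, and the growth factor genes Csf2 and Csf1 rose by 0.88 ± 0.14 and fell by 0.44 ± 0.06. The inhibitor gene Nfkbia, itself an NF-kB target, rose by 0.37 ± 0.07. Of 24 AP-1 and immediate early genes 9 rose and 4 fell. Beside both lists stand the 21.9% higher and 19.7% lower of all genes tested. Fos rose from 2.16, 3.09 and 3.24 to 11.1, 12.04 and 11.3 CPM (2.01 ± 0.16, adjusted p = 1.28e-08), and Zfp36, which destabilises cytokine messages, by 0.87 ± 0.10. Dusp4, a phosphatase of MAP kinases, was at 131, 114 and 129 and 73.5, 106 and 69.6 CPM, with replicate 2 nearest the controls, and fell by 0.58 ± 0.11 (adjusted p = 0.000314; −0.80 without replicate 2, adjusted p = 1.75e-07). The median of the AP-1 list was 0.04, and −0.02 without FEM1B siRNA replicate 2.

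Several junction genes rose and several mesenchymal genes fell. Of 25 epithelial genes 14 rose and 2 fell, with a median of 0.39; for members with a mean log2 CPM of 3 or more the median was 0.04 with 8 higher, and 4 of the 25 were under 1 CPM with control siRNA. Jup, plakoglobin of desmosomes and adherens junctions, rose from 128, 122 and 122 to 206, 202 and 193 CPM (0.69 ± 0.05, adjusted p = 3.55e-09). Dsp, desmoplakin, rose from 2.89, 1.597 and 3.19 to 8.92, 10.7 and 8.995 CPM (1.89 ± 0.24, adjusted p = 4.53e-06), and the desmosomal gene Pkp3 by 1.32 ± 0.13. The keratin gene Krt7 rose by 0.39 ± 0.05. In these bulk libraries a change in the level per cell and a change in the share of cells of a kind cannot be told apart. Of the gut lineage markers, 6 of 13 were higher and 2 lower. Beside these and the epithelial counts stand 21.9% higher and 19.7% lower of all genes tested. Cdh17 fell from 82.4, 83.6 and 84.3 to 70.9, 76.9 and 64.7 CPM (−0.23 ± 0.07, adjusted p = 0.00752). That call ended without FEM1B siRNA replicate 3 (adjusted p = 0.0568). Vil1, villin of the brush border, which overlaps Usp37, had 0.9999, 0.749 and 0.971 and 5.58, 4.26 and 5.25 CPM (2.47 ± 0.23, adjusted p = 8.5e-08), and the lineage factor gene Hnf4a 71.99, 73.7 and 71.6 and 109.8, 96.1 and 105 CPM (0.52 ± 0.09, adjusted p = 0.000172); the part of these markers in the epithelial result was not tested.

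Of 22 mesenchymal genes 2 rose and 9 fell, beside 21.9% higher and 19.7% lower of all genes tested. Zeb2, a repressor of epithelial genes, fell from 56.1, 50.6 and 59.3 to 31.9, 35.9 and 31.5 CPM (−0.74 ± 0.09, adjusted p = 1.63e-06), Snai2 by 0.75 ± 0.13, the receptor kinase gene Axl by 0.41 ± 0.06 and fibronectin, Fn1, by 0.55 ± 0.09, while S100a4 rose by 0.48 ± 0.10. The median of this list was −0.06. It was −0.02 without control siRNA replicate 1, −0.13 without control siRNA replicate 2, and −0.19 for members with a mean log2 CPM of 3 or more. Of 22 YAP and TGF-beta response genes 2 rose and 10 fell, with a median of −0.21, and without FEM1B siRNA replicate 2 the number that fell was 13 and the median −0.27. Ankrd1, a YAP target in many cells, went from 301, 279.7 and 302 to 173, 182 and 164 CPM and fell by 0.77 ± 0.07 (adjusted p = 3.81e-08). Cyr61, a relative of Ctgf, fell by 0.91 ± 0.16. Id1, a target of BMP signals, rose by 0.56 ± 0.07. Cyr61 was at 321, 306 and 339 CPM with control siRNA and 147, 224 and 144 CPM with FEM1B siRNA, where replicate 2 was nearest the controls; without it Cyr61 was at −1.14 (adjusted p = 1.86e-06).

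Proliferation genes showed no common direction. The counts in this paragraph stand beside 21.9% higher and 19.7% lower of all genes tested. For mitosis, 7 of 24 genes rose, among them Ube2c, a partner of the anaphase-promoting complex (0.44 ± 0.06), and 5 fell, among them the kinesin gene Kif20a (−0.69 ± 0.06), whose position overlaps Brd8 and Cdc23; 3 fell without control siRNA replicate 1 or FEM1B siRNA replicate 1 or 3. Of 24 replication genes 1 rose, the sliding clamp gene Pcna (0.47 ± 0.08), and 4 fell, such as the helicase gene Mcm6 (−0.39 ± 0.06). Of 18 genes linked to p53, a factor whose gene is floxed in this genotype, 5 rose and 6 fell; the number that rose was 1 to 3 without control siRNA replicate 1 or 3 or FEM1B siRNA replicate 1 or 2. Btg2, an antiproliferative gene, rose from 29.05, 28.5 and 28.01 to 57.5, 58.03 and 53.9 CPM (0.99 ± 0.07, adjusted p = 5.9e-09). Of 34 proteasome genes 11 rose and 7 fell, with the core subunit gene Psmb4 at 0.31 ± 0.05 and the lid subunit gene Psmd7 at −0.32 ± 0.05; 14 of 33 with a length were in the shortest group.

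The knockout values were last set beside those of control cells, whose 6 libraries are different ones. In control cells FEM1B siRNA gave 5982 called genes (44.9%), 2944 higher (22.1%) and 3038 lower (22.8%). Of these 5982, 89.1% had the same sign in knockout cells and 60.2% were also called there in that direction, which was 65.1% of the genes called in knockout cells. Over the 546 genes called and changed at least 2-fold in control cells, the median ratio of the knockout log2 change to the control one was 0.686; over the 506 such genes in knockout cells the reverse ratio was 0.64, so each set, picked for its size in 1 genotype, was smaller in the other. The test of the difference itself, an interaction term, called 805 genes (6.05%), 459 with a higher siRNA effect in knockout cells (3.45%) and 346 with a lower one (2.6%). Here and below, a higher or lower effect refers to the signed log2 change. A higher effect can thus be a weaker fall, and a lower one a weaker rise. Of the 805, 70 were called in both genotypes with opposite signs, 232 in knockout cells only, 333 in control cells only, and those called in both with the same sign were larger in knockout cells for 71 and smaller for 97; 2 were called in neither. The number rested on single libraries: it was 1863 without FEM1B siRNA replicate 2 of knockout cells, and 297 and 300 without replicates 1 and 3. It was 305 and 306 without knockout control siRNA replicates 1 and 3, and 381 and 395 without control cell control siRNA replicate 3 and FEM1B siRNA replicate 2.

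Antioxidant genes were among those that differed. Of all genes tested, 22.1% were higher and 22.8% lower in control cells, and 3.45% had a higher siRNA effect in knockout cells. Of 34 NRF2 targets, 20 fell and 3 rose in control cells, against 10 and 10 in knockout cells, and 11 had a higher siRNA effect in knockout cells by the interaction test of edgeR and none a lower one (2 at an unadjusted p under 0.05 and 0 with DESeq2). The count was 7 higher without control siRNA replicate 1 or 3 of knockout cells or FEM1B siRNA replicate 2 of control cells, 6 without FEM1B siRNA replicate 3 of knockout cells, and 14 higher and 2 lower without its replicate 2. Osgin1 fell in control cells (−0.72 ± 0.07) and rose in knockout cells (0.39 ± 0.07), an interaction of 1.11 ± 0.10 (adjusted p = 8.18e-06). Gsta4 did the same (−0.33 ± 0.07 and 0.61 ± 0.08, interaction 0.93 ± 0.11, adjusted p = 5.98e-05). Fth1 fell in control cells by 0.62 ± 0.05 and was not called in knockout cells, an interaction of 0.65 ± 0.08 (adjusted p = 5.98e-05). Idh1 was at 0.05 ± 0.07 in control cells and 0.62 ± 0.07 in knockout cells, an interaction of 0.56 ± 0.09 (adjusted p = 0.00181). For Ftl1 (−1.56 ± 0.10 and −1.23 ± 0.10), Nfe2l2 (−1.06 ± 0.06 and −0.93 ± 0.06), Slc7a11 (−1.56 ± 0.20 and −0.91 ± 0.19), Hmox1 (−0.32 ± 0.16 and −0.85 ± 0.16) and Fem1b itself (−1.66 ± 0.08 and −1.51 ± 0.08) the interaction was not called (adjusted p = 0.16, 0.336, 0.156, 0.15 and 0.483), which does not show that the effects were equal.

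Hypoxia targets and ER chaperones differed the other way. Of all genes tested, 22.1% were higher and 22.8% lower in control cells, and 2.6% had a lower siRNA effect in knockout cells. Within knockout cells 21.9% were higher and 19.7% lower. In control cells 17 of 23 hypoxia targets rose and 2 fell, against 2 and 5 in knockout cells, and 9 had a lower siRNA effect in knockout cells by the interaction test. That number was 15 without FEM1B siRNA replicate 2 of knockout cells, 3 without any 1 of the other FEM1B siRNA libraries or control siRNA replicates 1 and 3 of knockout cells, 3 without FEM1B siRNA replicate 2 of control cells, and 4 without control siRNA replicate 3 of control cells. Of 21 ER chaperones 12 rose and 2 fell in control cells, against 1 and 8, and 9 had a lower effect in knockout cells (14 without FEM1B siRNA replicate 2 of knockout cells, and 6 to 10 without any 1 other library). Hsp90b1 was at 0.24 ± 0.09 in control cells and −0.38 ± 0.09 in knockout cells, an interaction of −0.63 ± 0.13 (adjusted p = 0.0105), and Ero1l at 0.65 ± 0.18 and −0.58 ± 0.18, an interaction of −1.23 ± 0.25 (adjusted p = 0.00817). Pgk1 and Hyou1 had interactions of −0.62 ± 0.13 and −0.41 ± 0.08. No interaction was called for the 17 FLCN, FNIP and TFE genes, of which 10 rose in control cells and 11 in knockout cells, or for the 20 CUL2 ligase genes, at adjusted p under 0.05 by edgeR. At an unadjusted p under 0.05 there were 1 and 3, and DESeq2 called 0 and 1. The interaction was called for 6.05% of all genes tested, so a count of 0 in lists of this size is near that share.

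Among the genes named by the rule on size, which asks for a mean log2 CPM of 3 or more, the highest interactions were those of Aqp8, Apoc2 and Cldn2. These changes started from different levels in the genotypes. With control siRNA, Aqp8 was at 19.5 to 23.5 CPM in control cells and 0.0526 to 0.37 CPM in knockout cells. Apoc2 was at 1.7 to 1.84 and 0.368 to 0.416 CPM, and Cldn2 at 23.8 to 28.6 and 3.74 to 4.58 CPM. Apoc2 rose by 2.77 ± 0.13 in control cells, an interaction of 2.71 ± 0.26 (adjusted p = 1.06e-05), and Adap1 by 2.02 ± 0.13 (1.36 ± 0.25). Cldn2, a leaky-junction claudin gene, went from 4.58, 3.74 and 3.74 to 17.6, 9.28 and 15.4 CPM in knockout cells (1.81 ± 0.24) and fell in control cells (−0.73 ± 0.20), an interaction of 2.55 ± 0.31 (adjusted p = 0.000101). The steroid and fucose dehydrogenase gene Hsd17b14 (−0.61 ± 0.13 and 0.93 ± 0.12) and Aqp8 (−0.36 ± 0.13 and 2.59 ± 0.39) also differed in sign. The most negative interactions of genes named by size included Jag2, a Notch ligand gene that overlaps Mir6941, at 87.3, 83.9 and 88.7 and 72.4, 83.2 and 83.1 CPM in knockout cells (−0.12 ± 0.07, adjusted p = 0.192) and called higher in control cells (1.01 ± 0.14), an interaction of −1.14 ± 0.16 (adjusted p = 0.000435). The syndecan gene Sdc3 fell in knockout cells (−0.43 ± 0.09) and rose in control cells (0.70 ± 0.12), as did Cd109 (−0.54 ± 0.14 and 0.58 ± 0.16) and Dusp4 (−0.58 ± 0.11 and 0.31 ± 0.11). With control siRNA, Sdc3 was at 159 to 174 CPM in knockout cells and 15.6 to 16.2 CPM in control cells. Krt7 rose in knockout cells (0.39 ± 0.05) and fell in control cells (−0.27 ± 0.05). These calls of the interaction held without any 1 of the 12 libraries.

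**Figure D5:**
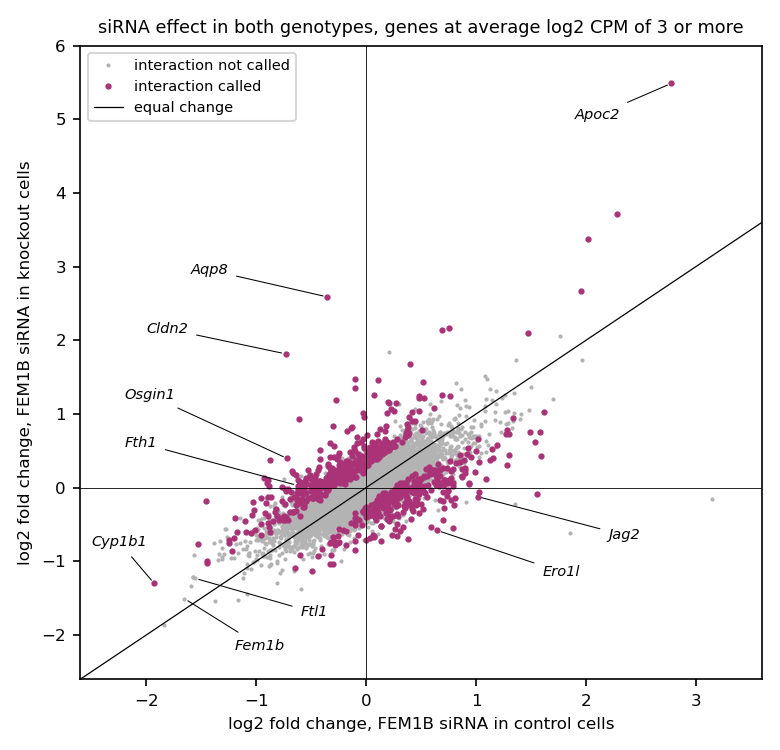
Log2 fold change with FEM1B siRNA in control cells (x axis) and BACH1 knockout cells (y axis) for genes whose mean log2 CPM was 3 or more; each point is 1 gene, larger coloured points are genes whose interaction was called, and the diagonal marks equal change. Fem1b lies near the diagonal at −1.66 and −1.51, Apoc2 far above it, and Aqp8, Cldn2 and Osgin1 rose in knockout cells and fell in control cells.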

How the data were processed

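RNA was measured by sequencing stranded mRNA libraries (TruSeq) of 12 KP cell cultures, per the labels' protocols. The authors deposited 1 table of whole-number read counts per gene symbol. Per the submitters' processing notes the build was mm10, and the tools were SAMtools 1.9, Subread with featureCounts 1.6.4, and DESeq2 1.26.0. Which gene annotation and strand setting were used is not given in the sources used here. No column of per-sample values was left out (0 columns).

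Genes with 10 or more counts in at least 3 libraries were kept (13312), scaled with TMM factors and fitted over all 4 groups with edgeR 4.0.16 (R 4.3.3, limma 3.58.1), quasi-likelihood test, 8 residual degrees of freedom and Benjamini-Hochberg adjustment over all genes tested. The contrasts were FEM1B siRNA against control siRNA within each genotype, and their difference. A standard error is the log2 fold change divided by the root of the F statistic. On simulated data for the knockout comparison (13312 genes), 97 of 100 genes changed 2-fold and 83 of 100 changed 1.5-fold were recovered, and 7.22% of calls were false. Only these genes were changed there, all at a mean of 1 CPM or more, while 41.6% of genes were called in the data. The recovery and the false share belong to that setting. Counts carry no molecular identifiers, so counting intervals cover counting error only. Positions came from RefSeq GRCm38.p6 (12678 genes).

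Genes named were the 10 largest rises and falls among called genes (mean log2 CPM of 3 or more over the libraries, and no overlap between knockout groups), in each list up to 6 genes by smallest p, and a list of pathway genes; the text takes those each paragraph is about, and this selection was made after their values were seen. Some items are not reported here. The members and lists were chosen with earlier results of these data known, and lists share members. Replicate pairs differed by more than sampling noise (chi-square per degree of freedom 2.5 to 9.64 in knockout cells). Alternatives were other scaling factors, DESeq2 1.42.0, other count filters, the 6 knockout libraries alone, a replicate block, and each library left out.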

Additional observations from a re-analysis of the deposited data

Results flagged for a closer look

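For 47 of 162 genes examined singly, the difference between the siRNA effects in knockout and control cells passed the interaction test (edgeR quasi-likelihood test, adjusted p under 0.05); values are knockout minus control log2 fold changes. A positive value can be a weaker fall in knockout cells, as for Cyp1b1 (−1.93 in control cells and −1.3 in knockout cells). A negative one can be a weaker rise, as for Nfkbia (0.89 and 0.37). Positive values, a log2 change more positive in knockout cells, were found for Aqp8 (2.94), Apoc2 (2.71), Cldn2 (2.55), Ifitm1 (1.58), Hsd17b14 (1.55), Acaa1b (1.46), Ifitm3 (1.45), Tspan1 (1.43), Glod5 (1.41), Adap1 (1.36), Hs3st1 (0.72), Krt7 (0.66), Cd14 (0.66), Smpd3 (0.63), Cyp1b1 (0.63), Icam1 (0.44), Foxa1 (0.31), Ndufv2 (0.30) and Csf1 (0.30). Among antioxidant, iron and lipid genes they were found for Osgin1 (1.11), Gsta4 (0.93), Fth1 (0.65), Idh1 (0.56), Steap2 (0.43), Nsdhl (0.42), Fdft1 (0.40), Pla2g6 (0.38), Gclm (0.33), Prdx6 (0.32), Prdx1 (0.31) and Lpcat3 (0.28). Negative values were found for Pgf (−1.33), Ero1l (−1.23), Jag2 (−1.14), Sdc3 (−1.13), Cd109 (−1.12), Tnfrsf9 (−1.03), Dusp4 (−0.89), Cd68 (−0.82), Nfe2l3 (−0.67), Hsp90b1 (−0.63), Pgk1 (−0.62), Nfkbia (−0.52), Cdh17 (−0.52), Aldh1l2 (−0.42), Hyou1 (−0.41) and Sdhd (−0.36). Of the 47, 28 were called under every alternative run. Leaving out each of the 12 libraries in turn, the call held in 2 of 12 runs for Tspan1. It held in 3 of 12 for Hs3st1, Steap2, Csf1 and Ndufv2, and in 4 for Gclm. For Pgf, Prdx6, Lpcat3 and Sdhd it held in 5 of 12, and Pgf was not called by DESeq2 (adjusted p = 0.0837).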

How the results depend on the processing

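Of 162 genes examined singly, 148 were called in knockout cells and 140 of these under every alternative in which they were tested. At an average log2 CPM of at least 3 only 151 of the 162 were tested. Calls in knockout cells numbered 5535, 5494 with DESeq2, 5541 with RLE factors, 4818 at an average log2 CPM of at least 3, and 4558 to 5895 when each library was left out. Numbers changed at least 2-fold were 68 higher and 33 lower at an average log2 CPM of at least 3, where fewer low genes were tested. The interaction gave 1393 genes, 736 higher and 657 lower, with no filter on low counts, and 617 lower with DESeq2 (the cause was not tested); leaving out each library gave 297 to 1863 genes, 171 to 957 higher and 121 to 906 lower. Same-numbered knockout libraries did not deviate together (r = −0.0104, −0.12 and −0.0181). With only 3 such pairs, this cannot decide whether the numbers pair the samples. With a replicate block 5299 genes were called, and 4872 with the block in the 6 knockout libraries. Uncalled values near 0 changed sign when single libraries were left out: Keap1 ranged from −0.02 to 0.07, Nfe2l3 from −0.06 to 0.09, Fth1 from −0.01 to 0.07, the transferrin receptor gene Tfrc from −0.14 to 0.01 (0.00 without control siRNA replicate 3), Nqo1 from −0.41 to 0.13 and Fnip1 from −0.14 to 0.04. Without FEM1B siRNA replicate 2 of knockout cells, interactions called in a list went from 2 to 12 higher (ATF4 response) and from 3 to 7 lower (glycolysis) and from 0 to 4 lower (mitosis); respiratory chain ones ranged from 0 to 8 higher when single libraries were left out, beside 1. Depth limits genes under 1 CPM.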
